A study of Mus musculus with 12 samples.

Results

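Solute carriers are the membrane proteins that move ions, metals, vitamins, amino acids, nucleosides, lipids and sugar derivatives across the plasma membrane and the membranes of organelles. Counted here were 112 of their genes in microglia, out of 48526 genes in the count table. They are the protein-coding genes with an Slc family symbol that held at least 150 counts over the 12 libraries, after 10 families were set aside (Slc1a, Slc2a, Slc3a, Slc7a, Slc11a, Slc16a, Slc17a, Slc25a, Slc38a and Slc40a). Of 371 protein-coding Slc genes, 121 were in the families set aside and 138 of the other 250 fell under the minimum, 29 of them with no count at all. Slc4a4 and Slc4a3 stood just inside it with 156 counts each, and Slc39a7 and Slc29a2 just outside with 149 and 145. The 112 genes came from 39 families, were sorted into 11 roles by family, and all passed the filter on low counts of the test. Slc9a3r1, a scaffold protein, and Slc4a1ap, an adaptor protein, carry Slc symbols and were kept by the rule although they transport nothing.

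Spinal cords of Biozzi ABH mice gave the microglia, which were gated by flow cytometry on CD11b, on an intermediate level of CD45 and on the absence of Ly-6C. One group was control mice, and 3 groups had chronic-relapsing EAE (experimental autoimmune encephalomyelitis, in which immunisation sets the immune system against the central nervous system) and were taken in the acute phase, in remission or in the chronic phase, with 3 mice and 3 libraries per group. Age, sex and what the control mice received were not given in the sources used here. Levels are CPM, counts scaled to a common library size after correction by the trimmed mean of M values, given below in the order of replicates 1, 2 and 3, and changes are log2 fold changes with their standard error (SE). A gene is called higher or lower where edgeR's quasi-likelihood test gave an adjusted p under 0.05 (Benjamini-Hochberg over the 12545 genes tested). Gene positions are those of GENCODE M21 on GRCm38.

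Transporter genes matter to microglia in several ways that are textbook background. Microglia engulf debris and microbes, and the lysosome then needs exporters that return amino acids, peptides, nucleosides, metals and heme to the cytosol. Proton exchangers set the pH of endosomes, cation-chloride carriers and carriers of taurine and inositol set cell volume, and zinc and copper carriers supply or withhold metals that enzymes and invading microbes both require.

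Total counts per library ran from 3992885 to 5712376, but outside the 6 most abundant features and the mitochondrial genes 1266782 to 2496096 remained, and 11959 to 21083 of these belonged to the 112 genes. The labelled cell type was checked with 12 homeostatic microglia markers, which summed to 10337 to 11580.0 CPM in control libraries and to 2463 to 3798 CPM in acute ones, where all 12 were lower. Monocyte markers, 14 of 15 called higher at the acute phase, summed to 11.1 to 45.96 CPM in control and 1899 to 2719 CPM in acute libraries. Of these, Ly6c2, whose protein the sort was to leave out, was at 0 in control and at 76.5, 74.6 and 42.7 CPM in acute libraries, and S100a4, Chil3 and Gpr141 were also at 0 in control. Neutrophil markers (9 of 12 called higher) summed to 0.350 to 0.647 and 128 to 443 CPM, and T and NK cell markers (8 of 12) to 0.569 to 1.23 and 94.6 to 133 CPM, in control and acute libraries. Oligodendrocyte markers (7 of 11 called higher) summed to 89.9 to 113 and 465 to 625 CPM, and astrocyte markers (3 of 9) to 63.01 to 79.7 and 200.1 to 249 CPM. Every acute result below moves with these lists, and their part in it was not tested. Remission replicate 1 stood apart from its group, with 734 CPM of oligodendrocyte markers against 71.9 and 149.8 and 61.8 CPM of neutrophil markers against 2.30 and 1.06. In such bulk samples fewer cells of a type and less RNA per cell cannot be told apart.

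The transporter genes split into both directions at the acute phase, and fewer of them were called against control in the later phases. In acute against control, 32 of the 112 genes were higher, beside 23.7% of all genes tested, and 24 were lower, beside 20.0%. In remission against control 6 were higher, beside 6.06%, and 1 was lower, beside 3.25%. In the chronic phase 16 were higher, beside 9.57% of all genes, and 3 were lower, beside 5.17%. As shares of the 112 genes these are 28.6 and 21.4% at the acute phase, 5.36 and 0.893% in remission and 14.3 and 2.68% in the chronic phase. The acute shares lie close to the background. Their median log2 change in acute against control was 0.08, beside 0.02 over all genes, and their median absolute change was 0.65, beside 0.59. With library totals in place of trimmed-mean scaling the median of all genes shifted by -0.56 at the acute phase and the split became 19 higher and 50 lower, while the chronic split became 4 and 19 and that of remission 3 and 4. Under that scaling the acute rises of Slc12a9, Slc23a2 and Slc30a7 turned negative, and calls lost included those of Slc26a11, Slc30a1, Slc35c1, Slc35f6, Slc39a1, Slc43a2, Slc44a1, Slc4a4 and Slc8b1. The calls lost in remission included those of Slc23a2 and Slc35f6. The calls kept in the chronic phase were those of Slc12a7, Slc31a1, Slc39a14 and Slc39a4. Without remission replicate 1, remission against control gave 7 higher and 1 lower, but 11 were higher without remission replicate 2 and 13 without chronic replicate 1. The 16 chronic rises came to 9 without any one of the control replicates. Shares of all genes called under these other fits are not given here, so these counts cannot be set against a background.

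**Figure D1:**
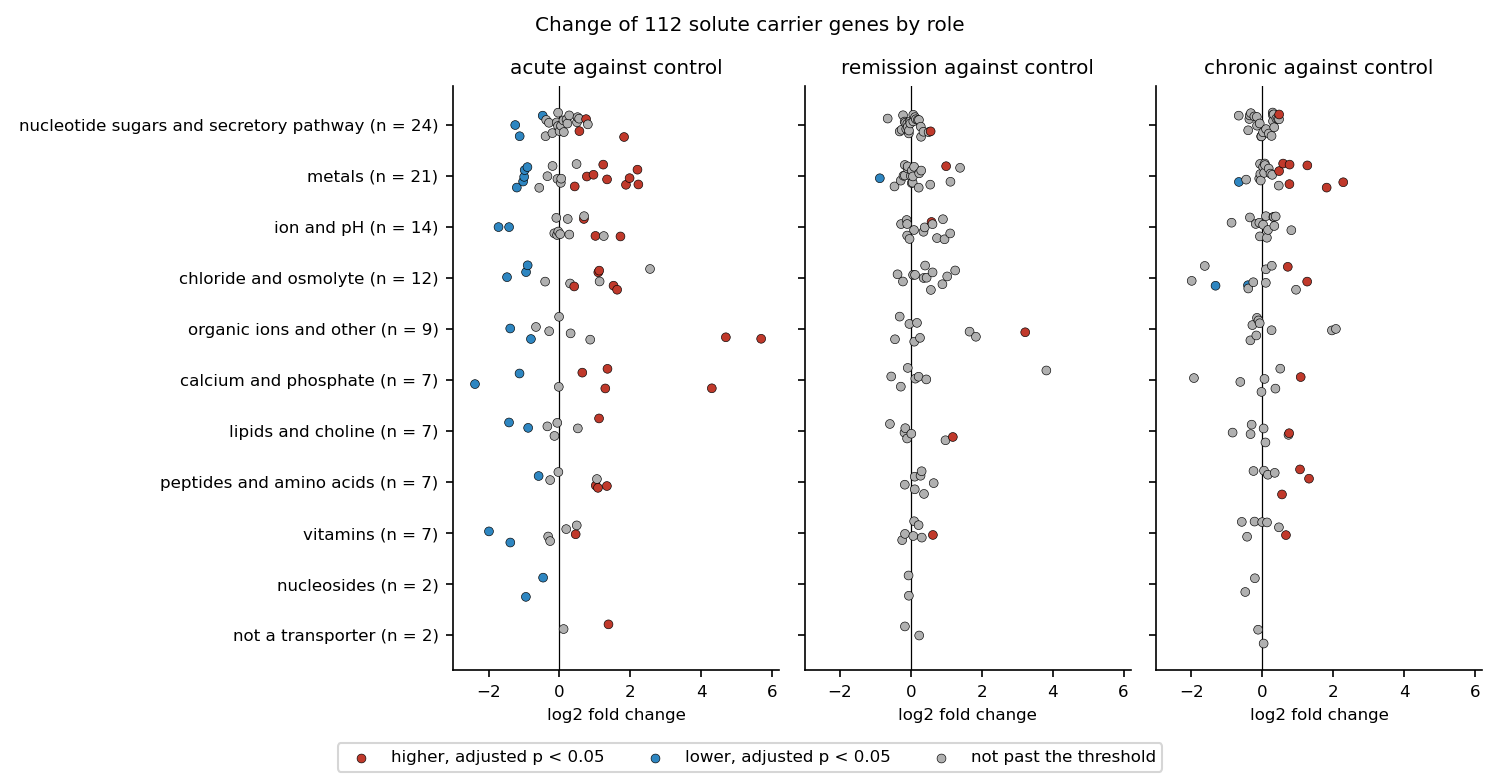
Log2 fold change (horizontal axis) of each of the 112 genes, in rows by role, for the 3 disease phases against control; red points were higher, blue points lower and grey points not past an adjusted p of 0.05. The acute panel has 32 red and 24 blue points spread over nearly every role, the remission panel 6 and 1, and the chronic panel 16 and 3.

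Among the families with 2 or more members, 30 in all, 9 had calls in both directions at the acute phase, 10 only higher calls, 7 only lower calls and 4 none. No gene was called in opposite directions in 2 comparisons with control. Of the 112 genes, 53 were called in none of the 3 phases. Of the 56 genes not called at the acute phase, 52 had a log2 change under 1 in size. Over all genes tested, 23.7% were higher and 20.0% lower at the acute phase. The other counts of this paragraph have no share over all genes beside them, so they are not read as traits of transporters.

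Per length of exon, Slc29a3, the lysosomal nucleoside transporter ENT3, was the most abundant transporter with 40.2 CPM per kilobase of exon over the 12 libraries. Slc36a1, the lysosomal amino acid transporter PAT1, followed with 28.8, and Slc6a6, the taurine transporter, with 23.998 CPM per kilobase. After them came Slc12a9 of the cation-chloride cotransporter family at 21.95, the zinc importer Slc39a1 at 21.4, the lysosomal peptide and histidine transporter Slc15a3 at 17.8 and the copper transporter family member Slc31a2 at 17.6 CPM per kilobase. Slc43a2, a neutral amino acid transporter (14.9), Slc15a4, the relative of Slc15a3 (13.4), and Slc35b2, which carries the sulfate donor PAPS into the Golgi (12.3), closed the first 10 on the same scale. The order was not the same in every group. In control libraries Slc6a6 stood at 15.8 and Slc31a2 at 12.5 CPM per kilobase, while at the acute phase they stood at 33.8 and 29.5, beside 32.8 for Slc29a3. Slc4a4 was at the bottom with 0.272 CPM per kilobase.

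**Figure D2:**
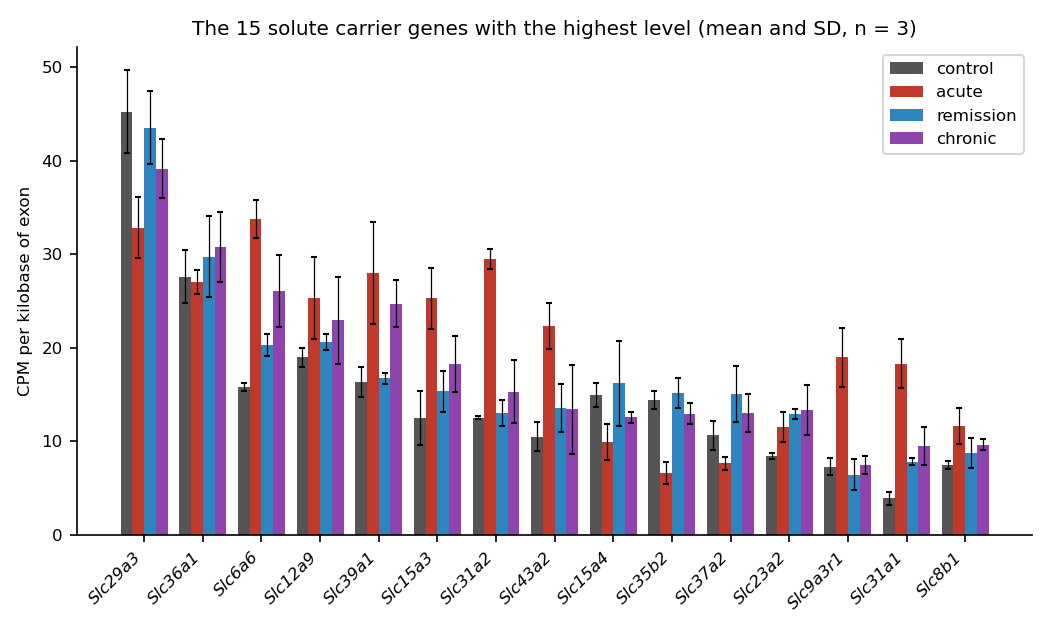
Level in CPM per kilobase of exon (vertical axis, from 0) of the 15 most abundant transporter genes, as the mean of 3 libraries per group with the SD as error bar. Slc29a3 is the highest in control and Slc36a1 is alike in all groups, while the red acute bars of Slc6a6, Slc39a1, Slc15a3 and Slc31a2 stand above their control bars.

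Some abundant genes did not pass the test in any phase. Slc36a1 read 152, 141 and 172 CPM in control, 144, 153 and 159 in acute, 149, 195 and 158 in remission and 154, 169.8 and 196 in chronic libraries. All 4 groups overlapped, and the log2 change in acute against control was -0.03 ± 0.13 (adjusted p = 0.873). Slc8a1, the sodium-calcium exchanger NCX1, was another such gene, with means of 105 ± 6.57 CPM in control and 104 ± 13.97 CPM in acute libraries (SD) and a log2 change of -0.02 ± 0.14 (adjusted p = 0.927).

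Of 21 metal and heme carriers, 9 were higher and 5 lower at the acute phase, 1 higher and 1 lower in remission, and 7 higher and 1 lower in the chronic phase. Beside these and all role and list counts below, 23.7% of all genes tested were higher and 20.0% lower at the acute phase. The shares were 6.06 and 3.25% in remission and 9.57 and 5.17% in the chronic phase. Most roles and lists hold few genes, and none was tested as a set. Copper and heme genes rose, and zinc importers went both ways.

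Slc31a1, the high-affinity copper importer CTR1 of the plasma membrane, was raised in all 3 phases. Control libraries held 13.8, 19.8 and 16.8 CPM and acute libraries 73.2, 91.1 and 70.8 CPM. Remission libraries held 31.6, 34.4 and 34.3 CPM and chronic libraries 39.3, 32.8 and 49.99 CPM. Every diseased library lay above every control library, the acute ones farthest. The log2 change was 2.23 ± 0.17 (SE) at the acute phase (adjusted p = 3.36e-09), 0.995 ± 0.18 in remission (adjusted p = 7.16e-04) and 1.27 ± 0.18 in the chronic phase (adjusted p = 3.12e-05). The fall from acute to remission was itself past the threshold (log2 -1.23 ± 0.17, adjusted p = 8.54e-06), whereas chronic and remission libraries overlapped (log2 0.28 ± 0.17, adjusted p = 0.452).

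Its neighbour on chromosome 4, Slc31a2, lies 62.3 kb away and encodes CTR2, a related protein of endosomes and lysosomes. It read 25.7, 25.6 and 25.03 CPM in control and 60.96, 57.5 and 61.4 CPM in acute libraries. Remission gave 23.4, 29.1 and 27.1 CPM and the chronic phase 27.7, 26.6 and 39.02 CPM. The acute libraries stood clear of all others, and the chronic ones lay just above control. Slc31a2 rose by log2 1.23 ± 0.15 at the acute phase (adjusted p = 1.71e-06) and was at 0.06 ± 0.16 in remission (adjusted p = 0.884) and 0.28 ± 0.16 in the chronic phase (adjusted p = 0.269). The counts of Slc31a1 per count of Slc31a2, a ratio that does not depend on the scaling of a library, ran from 0.536 to 0.774 in control, 1.15 to 1.58 in acute, 1.18 to 1.35 in remission and 1.23 to 1.42 in chronic libraries. The ratio was thus higher in every diseased library than in any control library, also in remission, where Slc31a2 overlapped control.

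Slc48a1, the transporter HRG1 that brings heme out of the phagolysosome, was the third metal gene of this kind. It stood at 10.1, 8.24 and 8.20 CPM in control and at 44.1, 36.2 and 42.7 CPM in acute libraries, a 4.60-fold difference (log2 2.20 ± 0.22, adjusted p = 1.17e-07). In remission it read 15.9, 13.4 and 9.30 CPM and in the chronic phase 20.4, 13.3 and 11.7 CPM, both far under the acute libraries. The chronic rise of log2 0.77 ± 0.23 (adjusted p = 0.0295) was lost without control replicate 2 (adjusted p = 0.114), control replicate 3 (0.103) or chronic replicate 1 (0.193). Hmox1, heme oxygenase, which breaks heme down, went from 8.60 ± 1.02 to 27.2 ± 5.26 CPM (SD), a log2 change of 1.66 ± 0.22 (adjusted p = 3.75e-06). Of the 11 genes listed for folate, thiamine and heme use, 9 were tested and 3 were higher at the acute phase, Hmox1, Ggh and Mthfd2, with none lower.

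Zinc importers of the Slc39 family split. Slc39a14 (ENSMUSG00000022094, chr14:70303469-70351425), ZIP14, which takes up zinc, manganese and iron, read 10.1, 13.1 and 9.71 CPM in control and 44.6, 46.4 and 39.1 CPM in acute libraries. In remission it read 20.9, 22.6 and 28.7 CPM and in the chronic phase 28.4, 42.3 and 91.6 CPM. All diseased libraries were above all controls, and chronic replicate 3 was the highest of the 12. It changed by log2 1.98 ± 0.38 at the acute phase (adjusted p = 0.00144), 1.12 ± 0.38 in remission (adjusted p = 0.109) and 2.29 ± 0.37 in the chronic phase (adjusted p = 0.00175). Both calls held without each library in turn and with library totals.

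Slc39a10, ZIP10 of the plasma membrane, went the other way in all 3 phases and was the one member lower in remission. Control libraries held 24.5, 27.3 and 28.5 CPM and acute libraries 10.6, 11.99 and 12.2 CPM. Remission libraries held 13.7, 13.97 and 16.2 CPM and chronic libraries 11.3, 21.2 and 17.9 CPM. No diseased library reached the lowest control library. The fit gave a log2 change of -1.20 ± 0.21 (adjusted p = 9.99e-05), -0.88 ± 0.20 (adjusted p = 0.00657) and -0.66 ± 0.20 (adjusted p = 0.0285) at the acute phase, in remission and in the chronic phase. The chronic call was lost without any one of control replicates 1, 2 and 3 or chronic replicates 1 and 3, with adjusted p from 0.0505 to 0.148.

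Of the other zinc importers, Slc39a1, or ZIP1, rose from 42.4, 38.9 and 34.7 CPM in control to 79.9, 63.9 and 54.5 CPM in acute libraries (log2 0.77 ± 0.15, adjusted p = 2.30e-04). Remission values were 38.4, 41.1 and 39.05 CPM, inside the control range, and chronic values 54.9, 55.1 and 65.3 CPM (chronic log2 change 0.59 ± 0.15, adjusted p = 0.00796, and 0.0513 without control replicate 3). Slc39a11, ZIP11, showed means of 8.39 ± 0.797 CPM in control and 21.4 ± 6.37 CPM in acute libraries (log2 1.34 ± 0.25, adjusted p = 1.75e-04). Its chronic rise of log2 0.77 ± 0.25 (adjusted p = 0.0421) was lost without any one of 5 libraries, control replicates 1, 2 and 3 and chronic replicates 1 and 3, with adjusted p from 0.0806 to 0.132. It was also lost with DESeq2 (adjusted p = 0.0696), with limma-voom (0.0515) and with the number at the end of each sample title as a covariate (0.0818). Slc39a4, ZIP4, the importer known from the intestine, was low throughout, with 1.21 ± 0.443 CPM in control and 4.61 ± 0.686 CPM in acute libraries (log2 1.88 ± 0.47, adjusted p = 0.00284). Lower at the acute phase were Slc39a13, ZIP13 of intracellular membranes, with 14.6 ± 1.55 against 7.78 ± 0.961 CPM (log2 -0.90 ± 0.22, adjusted p = 0.00227), and Slc39a8, ZIP8. For Slc39a8, which takes up manganese and zinc, control libraries at 8.96, 5.78 and 11.4 CPM overlapped acute libraries at 2.85, 5.86 and 4.45 CPM. Its log2 change of -0.98 ± 0.35 (adjusted p = 0.0264) was lost without control replicates 1 or 3 or acute replicates 1 or 3 (adjusted p from 0.0570 to 0.133) and with limma-voom (0.0648).

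**Figure D3:**
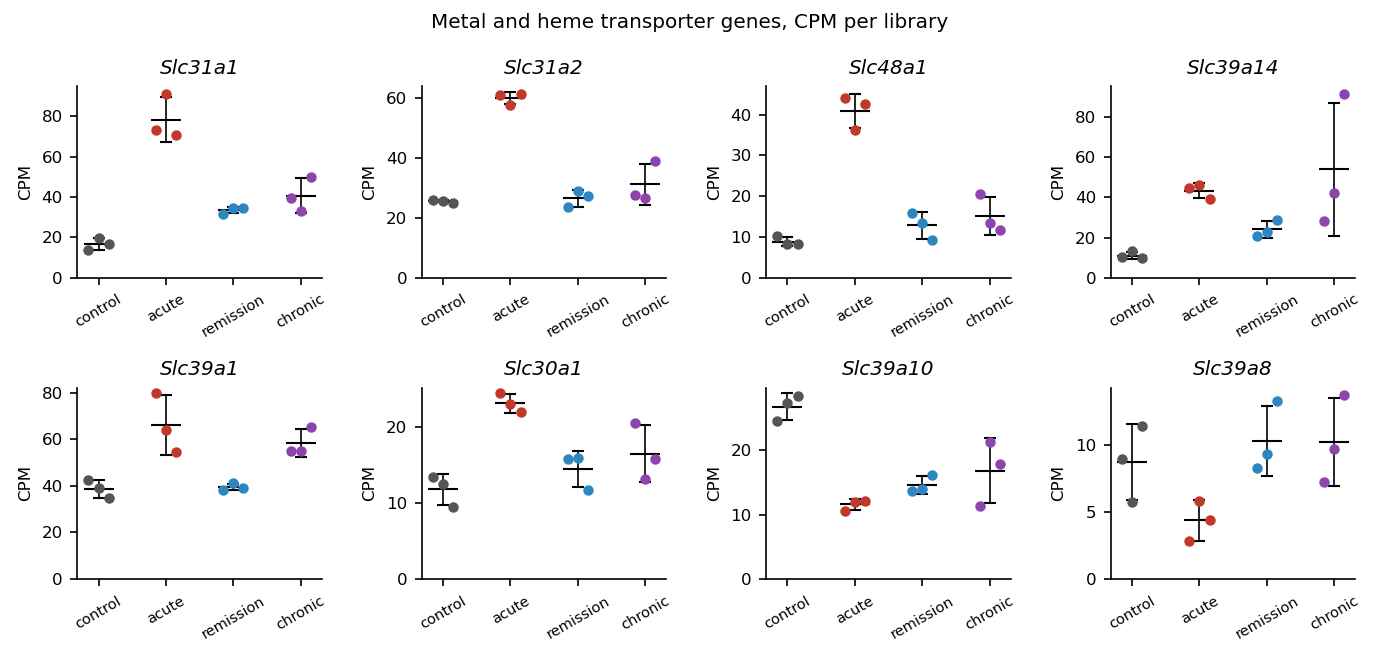
CPM (vertical axis, from 0) of 8 metal and heme transporter genes in each of the 12 libraries (points), with the mean and SD of each group of 3. The acute points of Slc31a1, Slc31a2 and Slc48a1 stand clear above every other group, Slc39a14 has 1 chronic library far above the rest, and Slc39a10 lies under control in all 3 phases.

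Among the zinc exporters, Slc30a1, ZnT1, which moves zinc out across the plasma membrane, read 13.4, 12.4 and 9.49 CPM in control and 24.4, 22.9 and 21.9 CPM in acute libraries, without overlap (log2 0.96 ± 0.21, adjusted p = 7.89e-04). Remission read 15.7, 15.9 and 11.7 CPM and the chronic phase 20.4, 13.1 and 15.8 CPM, and both overlapped control. Slc30a7, which loads zinc into the Golgi, was higher at the acute phase by log2 0.43 ± 0.14 (adjusted p = 0.0164), a call lost without control replicates 1 or 3 or acute replicate 3 (adjusted p from 0.0525 to 0.0771) or with no low-count filter (0.0795) and turned to a lower value when library totals scaled the data. Slc30a4, ZnT4 of vesicles, was lower, with 13.1 ± 2.53 CPM in control and 6.59 ± 1.98 CPM in acute libraries (log2 -0.996 ± 0.27, adjusted p = 0.00534). The magnesium transporter family member Slc41a3 was also lower (20.7 ± 3.29 against 10.1 ± 1.39 CPM, log2 -1.03 ± 0.21, adjusted p = 5.38e-04). Genes of this role that did not pass at the acute phase included Slc30a9 (log2 -0.34 ± 0.15, adjusted p = 0.0672), Slc39a9 (-0.20 ± 0.15, adjusted p = 0.296) and Slc30a5 (-0.06 ± 0.18, adjusted p = 0.821).

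Of 10 listed partners that bind or pump zinc and copper, 8 were tested and 6 were higher at the acute phase, none lower. The copper chaperone Atox1 went from 2.51 ± 0.696 to 15.03 ± 2.04 CPM (adjusted p = 6.82e-07). Mt1, the metallothionein that binds zinc and copper, went from 1.78 ± 0.818 to 13.1 ± 0.984 CPM (log2 2.88 ± 0.39, adjusted p = 5.07e-06) and stood at 7.95 ± 2.21 CPM in remission (adjusted p = 9.05e-04) and 6.72 ± 3.12 CPM in the chronic phase (adjusted p = 0.00232). Its relative Mt2 held 1 count in the control group and 46 in the acute group, a ratio of 72.8 with an exact 95% counting interval from 12.4 to 2936.

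Because zinc regulates Slc30a1 and the metallothionein genes through metal response elements, the promoters of the copper pair and of the zinc genes Slc30a1 and Slc39a10 are shown. Each is the 250 bases before the start of the gene from RefSeq (GRCm38.p6), 5′ to 3′ on the strand of the gene, and capitals mark a match to the core TGCNCNC on either strand.
Slc30a1 (ENSMUSG00000037434, chr1:191906531-191906780, plus strand): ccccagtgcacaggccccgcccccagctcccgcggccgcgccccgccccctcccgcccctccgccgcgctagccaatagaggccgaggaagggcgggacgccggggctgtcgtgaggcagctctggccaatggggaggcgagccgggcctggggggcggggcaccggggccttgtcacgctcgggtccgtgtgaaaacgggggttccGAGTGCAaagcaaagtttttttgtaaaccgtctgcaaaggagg
Slc31a1 (ENSMUSG00000066150, chr4:62360451-62360700, plus strand): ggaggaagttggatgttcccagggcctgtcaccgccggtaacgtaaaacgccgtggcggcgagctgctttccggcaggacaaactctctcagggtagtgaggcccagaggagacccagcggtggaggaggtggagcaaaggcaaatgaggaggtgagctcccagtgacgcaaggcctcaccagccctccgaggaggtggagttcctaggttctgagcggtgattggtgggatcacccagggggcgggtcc
Slc31a2 (ENSMUSG00000066152, chr4:62286179-62286428, plus strand): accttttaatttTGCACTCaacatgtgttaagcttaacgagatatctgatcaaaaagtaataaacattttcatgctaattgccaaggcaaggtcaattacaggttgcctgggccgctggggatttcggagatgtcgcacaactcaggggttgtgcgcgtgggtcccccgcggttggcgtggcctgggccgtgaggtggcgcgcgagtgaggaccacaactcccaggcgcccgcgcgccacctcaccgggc
Slc39a10 (ENSMUSG00000025986, chr1:46925777-46926026, minus strand): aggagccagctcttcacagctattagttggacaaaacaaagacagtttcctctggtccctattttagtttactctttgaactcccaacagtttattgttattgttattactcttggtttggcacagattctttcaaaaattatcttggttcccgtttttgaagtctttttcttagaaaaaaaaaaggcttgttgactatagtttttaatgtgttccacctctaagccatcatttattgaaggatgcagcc
The core was present once before Slc30a1 and once before Slc31a2, and these letters were not in the windows of Slc31a1 and Slc39a10. It is a short pattern: 44.4% of the 32851 promoters in the table held it, and 45 of the 88 matched transporter promoters. The longer form TGCNCNCGG, which contains the core, was in 3.30% of all promoters and in 4 of the 88, those of Slc30a1, Slc35d1, Slc43a2 and Slc9a3r1. Of these 4 genes, Slc30a1, Slc43a2 and Slc9a3r1 were higher at the acute phase and Slc35d1 was at log2 0.12 ± 0.27 (adjusted p = 0.744). Among all 88 matched genes, 22 were higher, 22 lower and 44 not called at the acute phase. The core was before 14 of the higher, 8 of the lower and 23 of the uncalled genes. A link between these motifs and the changes was not tested.

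The largest relative rises were in organic ion carriers with few counts in control libraries. Genes with so few control counts could pass the minimum on total counts only through the diseased libraries. A large rise in some phase was thus built into the choice of such genes, and their place at the top is not read as a trait of this role. Slc22a15, an organic zwitterion carrier, had 4 counts over the 3 control libraries, at 0.427, 0.175 and 0 CPM. It read 17.9, 12.3 and 8.89 CPM in acute libraries, 4.43, 1.53 and 0.797 CPM in remission and 1.14, 0.180 and 2.04 CPM in the chronic phase. Acute libraries were above all others. The fitted log2 change was 5.69 ± 0.75 at the acute phase (adjusted p = 8.47e-06). Its rise in remission, log2 3.23 ± 0.86 (adjusted p = 0.0224), was lost without remission replicate 1 (adjusted p = 0.161) and without control replicate 2 (0.0999) or 3 (0.0810), and with limma-voom (0.0717).

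Slc22a4, or OCTN1, carries ergothioneine, an antioxidant taken from food. It had 7 counts in control, at 0.284, 0.526 and 0.432 CPM, and read 12.2, 8.26 and 13.04 CPM in acute libraries. Remission read 2.40, 0.765 and 1.33 CPM and the chronic phase 0.908, 3.06 and 0.765 CPM, above control in every library but far under the acute phase. Its log2 change was 4.69 ± 0.57 at the acute phase (adjusted p = 1.35e-06), 1.84 ± 0.67 in remission (adjusted p = 0.0984) and 1.97 ± 0.66 in the chronic phase (adjusted p = 0.0512). The carnitine carrier Slc22a5, OCTN2, lies 91.5 kb away on chromosome 11 and read 10.1, 10.3 and 11.4 CPM in control and 4.41, 7.73 and 8.003 CPM in acute libraries. It was lower without overlap but missed the threshold (log2 -0.66 ± 0.27, adjusted p = 0.0524), so the counts of Slc22a4 per count of Slc22a5 ran from 0.0282 to 0.0508 in control and from 1.07 to 2.76 in acute libraries.

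Of the 9 genes of this role, 2 were higher and 2 lower at the acute phase. Slc13a3, the sodium-coupled dicarboxylate carrier NaDC3, read 15.8, 17.7 and 15.1 CPM in control and 7.26, 6.13 and 5.04 CPM in acute libraries (log2 -1.39 ± 0.24, adjusted p = 8.84e-05). It was back at 11.998, 19.1 and 16.2 CPM in remission and 14.3, 10.98 and 15.05 CPM in the chronic phase. Slc22a17, also described as a receptor of lipocalin-2, went from 15.7 ± 2.59 to 9.001 ± 1.70 CPM (log2 -0.81 ± 0.22, adjusted p = 0.00527). Slc45a4 (40.5 ± 2.92 and 33.3 ± 13.03 CPM) and the sugar carrier Slc50a1 (12.2 ± 0.713 and 12.1 ± 0.827 CPM) did not pass.

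Calcium and phosphate carriers, 7 genes, had 4 higher and 2 lower at the acute phase. The deepest fall of all 112 genes was here, in Slc24a3 (ENSMUSG00000063873, chr2:145167754-145642166), the potassium-dependent sodium-calcium exchanger NCKX3. It read 15.8, 20.7 and 19.9 CPM in control and 3.37, 2.66 and 4.74 CPM in acute libraries. Remission libraries read 10.2, 13.2 and 15.1 CPM and chronic libraries 15.2, 9.54 and 11.99 CPM, all under the lowest control library and above the acute ones. The log2 change was -2.38 ± 0.28 at the acute phase (adjusted p = 7.33e-07), -0.55 ± 0.23 in remission (adjusted p = 0.152) and -0.62 ± 0.23 in the chronic phase (adjusted p = 0.0807). Its relative Slc24a1 was lower by log2 -1.13 ± 0.38 (adjusted p = 0.0206), a call lost without control replicate 2 or acute replicates 2 or 3 (adjusted p from 0.0671 to 0.102).

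Both sodium-phosphate importers rose. Slc20a1, PiT1, read 17.5, 13.5 and 10.4 CPM in control and 39.9, 28.5 and 34.1 CPM in acute libraries (log2 1.29 ± 0.23, adjusted p = 9.28e-05), and was at 15.1 and 14.7 CPM on average in remission and in the chronic phase. Slc20a2, PiT2, read 5.26, 5.96 and 3.67 CPM in control, 19.2, 7.99 and 11.3 in acute and 10.9, 10.6 and 10.5 in chronic libraries. It was higher in both phases (log2 1.35 ± 0.30, adjusted p = 0.00110, and 1.09 ± 0.30, adjusted p = 0.0177), the chronic call being lost without control replicate 1 (0.0541) or 3 (0.0905). Of 5 listed genes of phosphate export and sensing, edgeR called 0 at the acute phase, with 1 at an unadjusted p under 0.05 and 1 called lower by limma-voom. The exporter Xpr1 stood at 49.01 ± 2.31 CPM in control and 53.4 ± 1.26 CPM in acute libraries. Slc8b1, the mitochondrial sodium-calcium exchanger NCLX, went from 25.8 ± 1.60 to 40.3 ± 6.58 CPM (log2 0.64 ± 0.16, adjusted p = 0.00287).

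Chloride and osmolyte carriers, 12 genes, had 5 higher and 3 lower at the acute phase. Slc6a6 (ENSMUSG00000030096, chr6:91684053-91759066), the taurine importer, read 138, 131 and 132 CPM in control and 298, 293 and 266 CPM in acute libraries. Remission read 161, 176 and 178 CPM and the chronic phase 247, 184 and 231 CPM, each library above every control. It changed by log2 1.10 ± 0.12 (adjusted p = 5.29e-07) at the acute phase, 0.36 ± 0.12 in remission (adjusted p = 0.0765) and 0.72 ± 0.12 in the chronic phase (adjusted p = 3.38e-04). The inositol importer Slc5a3, SMIT1, which carries another osmolyte, was called in the other direction. It read 28.7, 20.2 and 19.9 CPM in control, 5.45, 9.32 and 10.1 in acute, 23.4, 13.6 and 22.3 in remission and 7.26, 11.7 and 8.42 in chronic libraries. Acute and chronic libraries lay under all controls, and remission libraries overlapped control. Slc5a3 changed by log2 -1.48 ± 0.27 at the acute phase (adjusted p = 1.75e-04) and -1.32 ± 0.26 in the chronic phase (adjusted p = 0.00134), and it was the only member called between chronic and remission libraries (log2 -1.09 ± 0.27, adjusted p = 0.0478), where 0.941% of all genes were higher and 0.263% lower. There edgeR called 0 members higher, DESeq2 2 and limma-voom 0, and 13 were higher at an unadjusted p under 0.05. The call of Slc5a3 between those groups was lost without any one of 9 libraries, all but acute replicate 1, remission replicate 2 and chronic replicate 2 (adjusted p from 0.0522 to 0.168).

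Among the cation-chloride cotransporters, Slc12a7, the potassium-chloride exporter KCC4, read 26.3, 18.8 and 17.3 CPM in control and 38.7, 51.7 and 46.5 CPM in acute libraries. In remission it read 28.2, 32.1 and 36.1 CPM and in the chronic phase 39.7, 46.6 and 65.5 CPM, so that no diseased library overlapped control. The fit gave a log2 change of 1.12 ± 0.20 at the acute phase (adjusted p = 1.15e-04), 0.61 ± 0.20 in remission (adjusted p = 0.0588) and 1.27 ± 0.19 in the chronic phase (adjusted p = 1.11e-04). The sodium-potassium-chloride importer Slc12a2, NKCC1, went from 53.5, 60.98 and 45.1 CPM in control to 34.5, 25.6 and 22.8 CPM in acute libraries (log2 -0.94 ± 0.24, adjusted p = 0.00454) and to 96.2, 47.3 and 74.1 CPM in remission (remission against acute log2 1.39 ± 0.24, adjusted p = 3.02e-04). Slc12a9 was higher by log2 0.42 ± 0.15 (adjusted p = 0.0270), a call that fell away without any one of control replicates 1 to 3 or acute replicates 2 or 3 (adjusted p from 0.0506 to 0.115) and that turned to a lower value with library totals.

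The creatine importer Slc6a8 read 3.70, 3.50 and 3.88 CPM in control and 12.2, 11.7 and 8.003 CPM in acute libraries (log2 1.53 ± 0.34, adjusted p = 0.00113), and the glycine importer Slc6a9 2.28, 1.75 and 1.29 and 6.74, 4.53 and 5.63 CPM (log2 1.63 ± 0.43, adjusted p = 0.00397). Slc5a6, a carrier of biotin and pantothenate that was placed here by its family, did not pass (5.15 ± 1.29 and 3.93 ± 0.493 CPM, adjusted p = 0.397). Slc6a8 and Slc6a9 were both low, and 30.2% of the exon length of Slc6a9 is shared with B4galt2, Ccdc24 and Gm17114. Of 12 listed genes of WNK signalling and cell volume, 11 were tested, 3 were higher and 1 was lower at the acute phase. Lrrc8b, a subunit of the volume-regulated anion channel, went from 4.09 ± 1.01 to 33.2 ± 5.73 CPM (log2 3.01 ± 0.23, adjusted p = 2.03e-09), its relative Lrrc8c from 5.08 ± 0.479 to 22.9 ± 2.42 CPM (adjusted p = 4.69e-07), and the kinase Wnk1, the one lower gene, from 351 ± 9.97 to 267 ± 27.001 CPM (log2 -0.39 ± 0.12, adjusted p = 0.00938).

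Carriers of protons, bicarbonate and sulfate, 14 genes, had 3 higher and 2 lower at the acute phase, and 9 did not pass. Slc9a9, the proton exchanger NHE9 of late recycling endosomes, read 42.1, 53.8 and 40.4 CPM in control and 13.2, 12.8 and 15.4 CPM in acute libraries. Remission read 43.9, 42.5 and 59.2 CPM and the chronic phase 47.7, 49.5 and 49.2 CPM, at control level again. Its log2 change was -1.72 ± 0.17 at the acute phase (adjusted p = 1.00e-07) and 0.10 ± 0.15 in the chronic phase (adjusted p = 0.736), and that from acute to remission was 1.81 ± 0.17 (adjusted p = 1.38e-07). Slc9a7, NHE7 of the trans-Golgi, read 8.96, 10.9 and 13.8 CPM in control and 3.37, 2.40 and 6.82 CPM in acute libraries (log2 -1.42 ± 0.33, adjusted p = 0.00171). The sulfate carrier family member Slc26a11 was higher by log2 1.01 ± 0.32 (adjusted p = 0.0140), a call lost without control replicate 1 (0.0812) or acute replicate 3 (0.0570). Slc9a8, NHE8 of the Golgi, did not pass (53.996 ± 5.27 and 50.8 ± 6.85 CPM, adjusted p = 0.648). The bicarbonate carrier Slc4a7 (75.6 ± 1.27 and 73.7 ± 10.7 CPM) and the sulfate carrier Slc26a2 (59.98 ± 4.14 and 57.2 ± 4.50 CPM) did not pass at the acute phase. Of 8 listed carbonic anhydrases and bicarbonate partners, 5 were tested, and Ahcyl1 (log2 0.54 ± 0.15, adjusted p = 0.00644) and Car14 (1.47 ± 0.52, adjusted p = 0.0271) were higher.

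The scaffold gene Slc9a3r1, named for its binding to a proton exchanger, read 12.5, 15.9 and 13.6 CPM in control and 43.6, 33.3 and 32.6 CPM in acute libraries (log2 1.38 ± 0.20, adjusted p = 1.13e-05). It was at 12.4 ± 3.24 CPM in remission and 14.4 ± 1.86 CPM in the chronic phase, and was called in neither against control. The remission mean lay just under the lowest control library (log2 change -0.17, adjusted p = 0.717).

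Peptide and amino acid carriers, 7 genes, had 3 higher and 1 lower at the acute phase. The lysosomal pair Slc15a3 and Slc15a4, which export histidine and small peptides, diverged. Slc15a3 read 55.5, 63.6 and 86.5 CPM in control and 135, 123.6 and 159 CPM in acute libraries, without overlap (log2 1.02 ± 0.17, adjusted p = 5.36e-05). Slc15a4 read 72.1, 84.99 and 80.9 CPM in control and 44.1, 50.4 and 64.03 CPM in acute libraries, also without overlap (log2 -0.59 ± 0.17, adjusted p = 0.00864, and 0.0538 without acute replicate 1). Counts of Slc15a3 per count of Slc15a4 ran from 0.748 to 1.07 in control, 2.46 to 3.05 in acute, 0.643 to 1.39 in remission and 1.33 to 1.69 in chronic libraries. Every acute library thus lay above every other library in this ratio, and control and remission libraries overlapped. In the chronic phase Slc15a3 was at 86.9, 119 and 95.4 CPM (log2 0.56 ± 0.17, adjusted p = 0.0284), a call lost without control replicate 1 (0.172) or 2 (0.129) or chronic replicate 2 (0.146), or when title numbers entered as a covariate (0.0538). Exons of Tmem132a overlap 28.1% of the exon length of Slc15a3.

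Because Slc15a4 takes part in signalling from endosomal nucleic acid receptors and both carriers pass the bacterial peptides sensed by Nod1 and Nod2, 8 genes listed for this sensing were tested. Nod2 was higher at the acute phase (22.7 ± 3.37 against 45.1 ± 9.22 CPM, log2 0.996 ± 0.21, adjusted p = 7.77e-04) as was Nod1, and 3 were lower. These included Tlr9 (119 ± 20.6 against 72.8 ± 8.63 CPM, adjusted p = 9.59e-04) and Unc93b1, the escort of endosomal receptors (401 ± 34.7 against 282 ± 23.5 CPM, log2 -0.51 ± 0.12, adjusted p = 0.00162).

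Slc43a2, LAT4, read 109, 89.02 and 119 CPM in control and 196, 244 and 232 CPM in acute libraries (log2 1.09 ± 0.21, adjusted p = 6.80e-04), and chronic replicate 1, at 189 CPM, was the highest library outside the acute group. Slc36a4, PAT4, an amino acid carrier related to Slc36a1, read 16.9, 15.6 and 18.8 CPM in control, 47.2, 34.9 and 47.4 in acute, 31.7, 27.7 and 19.9 in remission and 51.98, 28.3 and 27.03 in chronic libraries. All diseased libraries were above control, with log2 changes of 1.34 ± 0.24 (adjusted p = 2.05e-04), 0.64 ± 0.24 (adjusted p = 0.113) and 1.07 ± 0.24 (adjusted p = 0.00487). Slc43a3, a carrier of purine nucleobases, was called in the chronic phase alone (log2 1.32 ± 0.42, adjusted p = 0.0394), from 3.13, 4.38 and 2.81 CPM in control and 5.45, 4.68 and 16.3 CPM in chronic libraries. That call rested on chronic replicate 3, without which the adjusted p was 0.457. It was also lost without any one of control replicates 1 to 3, acute replicate 3 or remission replicate 3, and chronic against acute gave log2 0.26 ± 0.41 (adjusted p = 0.683). The chronic call of Slc43a3 was lost as well with DESeq2 (adjusted p = 0.0592), limma-voom (0.128), the title number as a covariate (0.0750) or only the groups compared in the fit (0.0773).

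Both nucleoside carriers measured were lower at the acute phase. Slc29a3 read 236, 269 and 287 CPM in control and 170.2, 198 and 207 CPM in acute libraries (log2 -0.46 ± 0.13, adjusted p = 0.00553), and Slc29a1, ENT1 of the plasma membrane, 31.2, 29.3 and 34.1 and 10.6, 14.7 and 24.01 CPM (log2 -0.95 ± 0.22, adjusted p = 0.00160). Neither overlapped control, and neither passed in remission or in the chronic phase. Of 11 listed genes of nucleoside salvage, 10 were found and 8 tested, with 3 higher and 1 lower at the acute phase. Samhd1, which breaks down deoxynucleotides, went from 79.5 ± 9.61 to 389 ± 46.4 CPM (log2 2.29 ± 0.19, adjusted p = 4.46e-08), the kinase Uck2 from 1.41 ± 0.756 to 16.8 ± 5.76 CPM (adjusted p = 3.36e-06) and the kinase Dck from 7.75 ± 0.706 to 18.3 ± 6.38 CPM (adjusted p = 0.00336).

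Vitamin carriers, 7 genes, had 1 higher and 2 lower at the acute phase. Slc46a1, the proton-coupled folate transporter, read 26.3, 31.02 and 32.6 CPM in control and 8.30, 13.9 and 12.2 CPM in acute libraries. In remission it read 40.2, 35.2 and 28.4 CPM and in the chronic phase 32.9, 25.03 and 31.9 CPM. Its relative Slc46a3, a lysosomal carrier, read 27.3, 33.5 and 22.4 CPM in control, 4.41, 5.59 and 11.3 in acute, 37.1, 35.2 and 30.8 in remission and 22.7, 21.8 and 17.3 in chronic libraries. In both genes the acute libraries lay under all others, with log2 changes of -1.39 ± 0.20 (adjusted p = 1.35e-05) and -1.99 ± 0.26 (adjusted p = 3.27e-06). From acute to remission they changed by log2 1.61 ± 0.20 (adjusted p = 4.14e-06) and 2.30 ± 0.26 (adjusted p = 1.04e-06). Slc19a1, the reduced folate carrier, did not pass (8.11 ± 1.61 and 11.5 ± 2.76 CPM, adjusted p = 0.173).

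Slc23a2, the ascorbate importer SVCT2, was among the 3 genes higher in all phases, with Slc31a1 and Slc35f6. It read 68.1, 63.96 and 68.2 CPM in control, 103, 93.8 and 77.7 in acute, 98.9, 108 and 102 in remission and 127, 107 and 84.9 in chronic libraries, and no diseased library overlapped control. The log2 change was 0.46 ± 0.14 (adjusted p = 0.0136), 0.62 ± 0.14 (adjusted p = 0.00638) and 0.67 ± 0.14 (adjusted p = 0.00238) in the 3 phases. The acute value turned negative when library totals scaled the data, and its call was lost without control replicate 2 (adjusted p = 0.0684) or acute replicate 1 (0.0749).

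**Figure D4:**
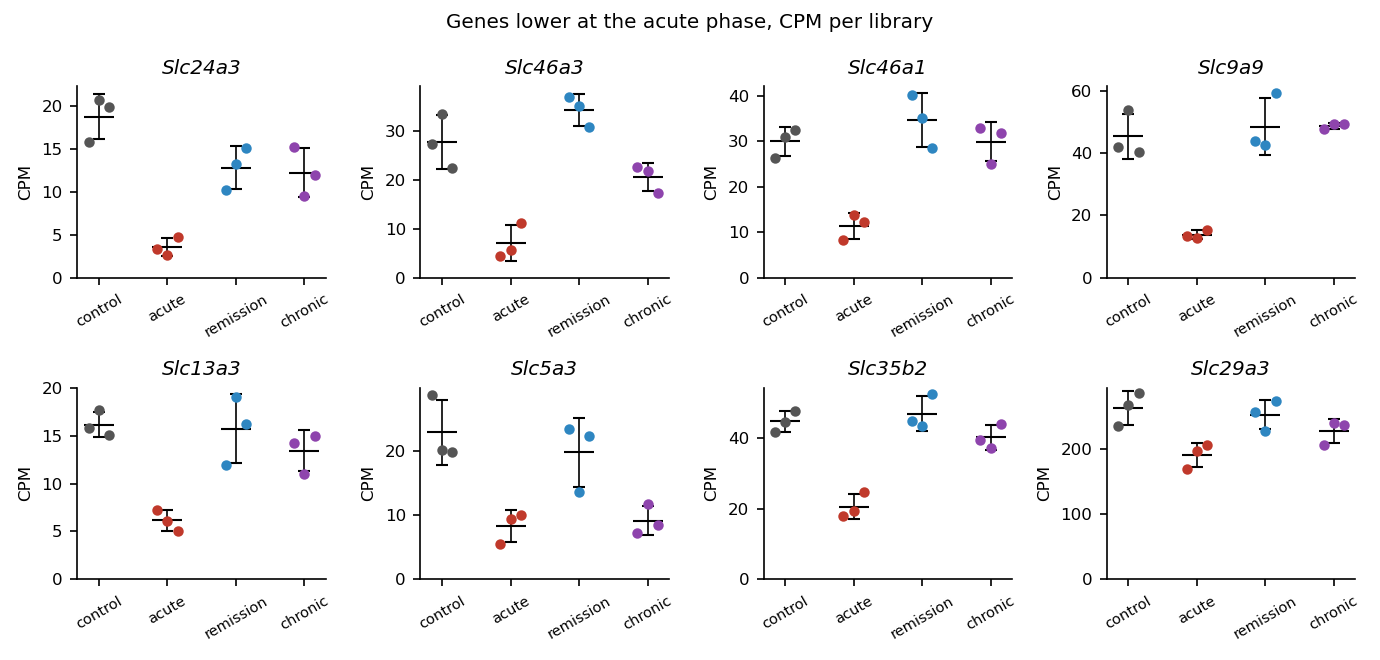
CPM (vertical axis, from 0) of 8 transporter genes that were lower at the acute phase, in each library (points) with the mean and SD of each group of 3. Slc46a1, Slc46a3, Slc9a9, Slc13a3 and Slc35b2 are low in the acute group and near control in the later groups, Slc24a3 stays under control in every diseased library, and Slc5a3 is low again in the chronic group.

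Lipid and choline carriers, 7 genes, had 1 higher and 2 lower at the acute phase. The bile acid carrier Slc10a1 was low, with 4.21 ± 0.729 CPM in control and 1.58 ± 0.697 CPM in acute libraries, and its fall of log2 -1.42 ± 0.49 (adjusted p = 0.0224) was lost without control replicates 1 or 2 or acute replicates 1 or 2 (adjusted p from 0.0512 to 0.0887). Slc44a1, the choline importer CTL1, read 9.96, 8.41 and 12.9 CPM in control and 27.5, 15.99 and 24.01 CPM in acute libraries (log2 1.12 ± 0.30, adjusted p = 0.00680). In remission it read 31.6, 15.7 and 13.3 CPM and in the chronic phase 20.9, 15.8 and 15.3 CPM, each library above every control. Slc44a2, its relative CTL2, read 69.4, 97.96 and 71.2 CPM in control and 42.8, 46.6 and 39.7 CPM in acute libraries (log2 -0.88 ± 0.14, adjusted p = 4.61e-05). Counts of Slc44a1 per count of Slc44a2 ran from 0.0859 to 0.182 in control and from 0.343 to 0.642 in acute libraries, without overlap. Of 8 listed genes of choline and phospholipid synthesis, 6 were tested and 3 were higher at the acute phase, Pcyt1a (log2 1.20 ± 0.20, adjusted p = 5.28e-05), Cept1 (0.64 ± 0.20, adjusted p = 0.0135) and Chka (0.97 ± 0.33, adjusted p = 0.0357).

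Slc27a1, the fatty acid transport protein FATP1, was called in remission and in the chronic phase but not at the acute phase. It read 14.1, 12.97 and 9.71 CPM in control, 16.6, 13.1 and 23.7 in acute, 27.1, 30.8 and 26.3 in remission and 27.01, 22.9 and 12.5 in chronic libraries. The remission libraries were above all control and all acute libraries. Log2 changes were 0.52 ± 0.26 (adjusted p = 0.117), 1.18 ± 0.25 (adjusted p = 0.00356) and 0.76 ± 0.25 (adjusted p = 0.0497), and remission against acute was past the threshold with all libraries (log2 0.67 ± 0.25, adjusted p = 0.0431) and was lost without any one of 7 of them, all but control replicates 1 and 3, acute replicate 3 and chronic replicates 1 and 3 (adjusted p from 0.0504 to 0.192). The remission call held without each library in turn and with library totals. The chronic one was lost without any one of 9 libraries, all but acute replicates 2 and 3 and chronic replicate 3, with adjusted p from 0.0545 to 0.213. DESeq2 (adjusted p = 0.0752), DESeq2's size factors in edgeR (0.0504), the title number as a covariate (0.100), only the groups compared (0.0575) and a fit without the 6 most abundant features and the mitochondrial genes (0.0505) also ended it. Among 9 listed genes that bind or activate fatty acids, 6 were tested, and Fabp5 (0.378 ± 0.178 against 20.7 ± 5.55 CPM, adjusted p = 6.43e-09), Cd36 (0.886 ± 0.329 against 56.8 ± 21.4 CPM, adjusted p = 6.37e-05) and Acsl1 (26.03 ± 1.74 against 46.5 ± 3.59 CPM, adjusted p = 4.83e-04) were higher at the acute phase.

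Carriers of nucleotide sugars, sugar phosphates and other cargo of the secretory pathway formed the largest role, with 3 higher, 3 lower and 18 of 24 not passing at the acute phase. Slc35b2, the PAPS carrier that supplies sulfation in the Golgi, read 41.8, 44.7 and 47.7 CPM in control and 17.9, 19.2 and 24.6 CPM in acute libraries. It stood at 44.9, 43.4 and 52.6 CPM in remission and 39.5, 37.1 and 44.1 CPM in the chronic phase. It changed by log2 -1.12 ± 0.15 (adjusted p = 6.11e-06) at the acute phase and 1.19 ± 0.16 (adjusted p = 5.60e-06) from there to remission. It lies 17.5 kb from Slc29a1 on chromosome 17, and both were lower. Slc35e3, whose cargo is not named here, was also lower, at 10.7, 8.59 and 13.4 CPM in control and 4.93, 4.80 and 3.85 CPM in acute libraries (log2 -1.25 ± 0.29, adjusted p = 0.00167).

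Slc37a1, a glucose-6-phosphate exchanger of the endoplasmic reticulum, read 6.26, 11.04 and 9.49 CPM in control and 35.3, 31.97 and 26.7 CPM in acute libraries. Later groups were at 14.4, 8.61 and 7.70 and 11.6, 8.82 and 12.5 CPM, in remission and in the chronic phase, near control. Slc37a2, a relative with the same cargo, read 70.3, 60.6 and 81.1 CPM in control, 45.7, 53.02 and 53.9 in acute and 109, 76.9 and 114 in remission. The log2 change at the acute phase was 1.82 ± 0.25 for Slc37a1 (adjusted p = 5.58e-06) and -0.47 ± 0.16 for Slc37a2 (adjusted p = 0.0240, lost without control replicate 3 at 0.103 or acute replicate 1 at 0.0990). Counts of the first per count of the second ran from 0.0891 to 0.182 in control and from 0.495 to 0.773 in acute libraries.

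Slc35f6 was higher in all 3 phases. It read 39.7, 44.7 and 46.4 CPM in control, 72.9, 62.6 and 84.5 in acute, 67.002, 57.4 and 67.999 in remission and 60.6, 57.4 and 63.8 in chronic libraries, without overlap with control. Its log2 changes were 0.75 ± 0.14 (adjusted p = 1.36e-04), 0.56 ± 0.13 (adjusted p = 0.00969) and 0.48 ± 0.14 (adjusted p = 0.0200), all 3 short of the threshold with library totals. Without control replicate 1 the remission call was lost (adjusted p = 0.0683), and the chronic call was lost without control replicates 1 or 2 or chronic replicate 3 (adjusted p from 0.0562 to 0.105). The GDP-fucose carrier Slc35c1 rose slightly (22.3 ± 2.11 against 32.8 ± 0.772 CPM, log2 0.56 ± 0.15, adjusted p = 0.00484). Genes that did not pass included Slc35e1 (35.3 ± 2.51 and 42.7 ± 2.602 CPM), the UDP-N-acetylglucosamine carrier Slc35a3 (34.8 ± 3.67 and 33.03 ± 3.04 CPM) and Slc35c2 (32.99 ± 5.27 and 32.9 ± 3.72 CPM). Of 16 listed genes that make nucleotide sugars, 15 were tested, 5 were higher and 1, Gne, the first enzyme of sialic acid synthesis, was lower (11.2 ± 1.34 against 6.54 ± 2.46 CPM, adjusted p = 0.0202). The higher ones included Ugp2 (log2 0.85 ± 0.17, adjusted p = 4.51e-04) and Papss2, which makes PAPS (1.64 ± 0.49, adjusted p = 0.00979).

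More of the acute calls turned back in remission than in the chronic phase. In remission against acute 23 of the 112 genes were higher, beside 17.6% of all genes tested, and 22 were lower, beside 19.4%. In chronic against acute 17 were higher, beside 13.3%, and 18 lower, beside 15.5%. With library totals these splits became 36 and 10 in remission and 22 and 13 in the chronic phase, and without remission replicate 3 the 22 lower calls in remission came to 14. Of the 32 genes higher at the acute phase, 19 were called lower in remission and 15 in the chronic phase than in acute libraries. Of the same 32, 4 were also called higher than control in remission and 14 in the chronic phase. Of the 24 lower at the acute phase, 20 were called higher in remission and 17 in the chronic phase than in acute libraries. Of the same 24, 1 was also called lower than control in remission and 3 in the chronic phase. How many of all genes turned back in this way was not counted. Genes outside these counts can still lie clear of control, as Slc24a3 did. These comparisons share the acute or the control libraries, so they do not stand independently of each other. The genes were picked by their acute values, which favours a turn back in tests that use the same acute libraries. Of the 13 genes called at the acute and chronic phases but not in remission, 2 were lower, Slc5a3 among them, and 11 higher. Among the higher ones, chronic and remission libraries were not shown to differ in Slc39a14, Slc39a1, Slc6a6, Slc36a4 or Slc12a7, with adjusted p of 0.146 for Slc39a14, 0.0614 for Slc39a1, 0.156 for Slc6a6, 0.402 for Slc36a4 and 0.0903 for Slc12a7.

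Some transporters of low level, chosen after their values were seen, were highest of the remission group in replicate 1, the remission library richest in oligodendrocyte markers. Slc24a2, the calcium exchanger NCKX2 of neurons, read 1.14, 0.175 and 0.432 CPM in control, 17.4, 7.46 and 13.3 in acute, 23.3, 0.383 and 3.19 in remission and 0, 0.180 and 0.255 in chronic libraries. Remission replicate 1 alone exceeded every acute library. The acute rise of log2 4.30 ± 1.28 (adjusted p = 0.0226) was lost without control replicates 2 or 3 or acute replicate 1 (adjusted p from 0.0612 to 0.0775) and with no low-count filter (0.0590). The chronic group held 2 counts against 140 in the acute group, an acute to chronic ratio of 88.5 with an exact 95% counting interval from 24.0 to 738. That interval leaves out the spread between mice. In edgeR the chronic against acute call was lost without acute replicate 1 or any one of the chronic replicates (adjusted p from 0.0593 to 0.0844). It was also lost with no low-count filter (0.0529). In remission against control the log2 value of 3.82 became 1.37 without remission replicate 1 (adjusted p = 0.113 and 0.406).

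The bicarbonate carrier Slc4a4, strong in astrocytes, read 2.42, 1.23 and 1.51 CPM in control, 4.15, 4.53 and 8.89 in acute and 7.20, 0.383 and 2.12 in remission. Its acute rise (log2 1.72 ± 0.65, adjusted p = 0.0410) was lost without any one of 8 libraries, all but acute replicate 1 and the remission replicates, with adjusted p from 0.0502 to 0.169, and with DESeq2 (0.0636). Slc12a5, KCC2 of neurons, read 2.70, 1.93 and 1.51 CPM in control, 4.67, 2.66 and 6.52 in acute and 7.94, 0.574 and 4.25 in remission, and its control and acute libraries overlapped (acute log2 change 1.13 ± 0.62, adjusted p = 0.150). Slc22a23 read 1.71, 2.45 and 0.863 CPM in control, 1.82, 3.20 and 4.45 in acute and 12.2, 2.10 and 1.59 in remission, and did not pass at the acute phase either (adjusted p = 0.365). Remission replicate 1 was the highest of its group in all 4 of these genes, a match with the oligodendrocyte list that was fixed by how they were chosen. Remission replicate 2 was the lowest in Slc24a2, Slc4a4 and Slc12a5. The 8 neuron markers summed to 8.41 to 14.03 CPM in control and 8.26 to 10.6 CPM in acute libraries, and to 22.1, 1.91 and 23.9 CPM in remission replicates 1 to 3. The part of other cells in these values was not tested.

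**Figure D5:**
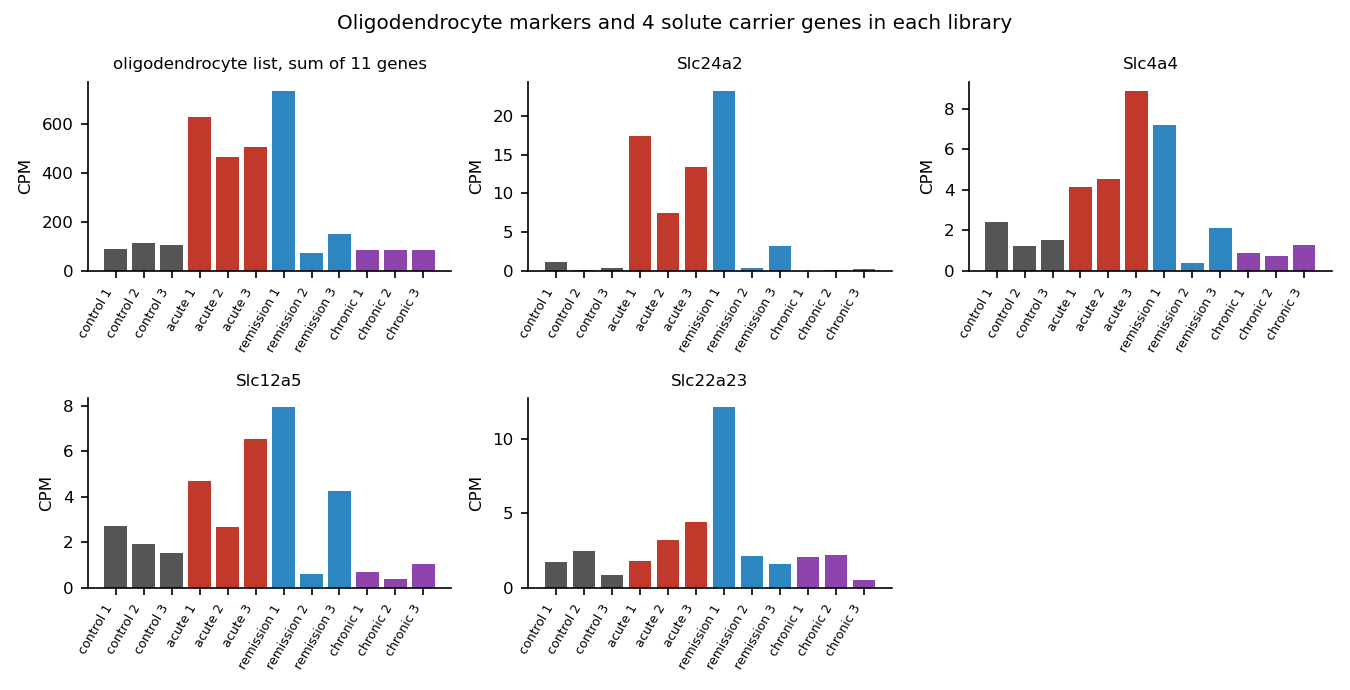
CPM (vertical axes, from 0) in each of the 12 libraries, coloured by group, for the sum of the 11 oligodendrocyte markers and for 4 transporter genes. Remission replicate 1 lies within or above the range of the acute libraries in every panel, and chronic libraries lie under the lowest acute library in all panels but that of Slc22a23.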

How the data were processed

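Microglia were sorted from 12 mice and sequenced as single reads from Nextera XT libraries, per the labels' protocols. The deposited table holds raw counts per gene. HISAT2, SAMtools 1.3.1, Picard 2.6.4 and HTSeq 0.6.1 and the build GRCm38 are named in the submitters' processing notes. The counting options and the strand setting were not given in the sources used here, so genes with overlapping exons or antisense partners are uncertain. Of 48526 gene IDs, 48144 were found in GENCODE M21, which gave symbols, gene types and exon lengths.

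Counts as deposited by the authors were tested with edgeR 4.0.16 (R 4.3.3): robust quasi-likelihood fit of 1 model of 4 groups, filterByExpr, trimmed-mean factors, and Benjamini-Hochberg adjustment over 12545 genes. The procedure was tested on simulated data. Alternatives were other scalings and low-count filters, DESeq2 1.42.0, limma-voom 3.58.1, the number at the end of each title as a covariate, fits of only the groups compared, and leaving out each library. Intervals of ratios of low counts are exact conditional intervals at 95% and cover counting error only, since reads carried no molecular identifiers. Replicates are separate mice, numbered in accession order, which pairs nothing.

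The members, their roles and the lists of markers and partners were chosen with earlier results of these data known. Genes were named by size of change (up to 8 per direction and phase with at least 10 CPM and no overlap), by level per kilobase (the first 10), by calls found only after the acute phase, and, per role, by the smallest p (up to 4) and the highest mean among those not called (up to 3). Up to 3 genes per partner list were named. Further zinc, chloride, osmolyte and neural carriers and the pairs given as ratios were chosen after their values were seen. Promoters came from a RefSeq table in which 88 of the 112 genes were found, and motifs were searched in the 250 bases before the start on both strands. Some genes are not reported here.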

Additional observations from a re-analysis of the deposited data

How the results depend on the processing

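All 56 acute, 7 remission and 19 chronic calls were refitted under 9 other settings and without each library, and 37, 3 and 4 of them held throughout. Library totals alone moved the acute counts to 19 higher and 50 lower, those of remission to 3 and 4, those of the chronic phase to 4 and 19, and remission against acute to 36 and 10, and gave 2 lower in chronic against remission. They also turned Slc12a9 to a log2 change of -0.14, Slc23a2 to -0.10 and Slc30a7 to -0.13 at the acute phase, beside a shift of -0.56 in the median of all genes. With no low-count filter, remission had 13 higher, and chronic against remission 4 higher and 5 lower. DESeq2 gave 2 higher and 3 lower in chronic against remission. limma-voom gave 11 higher and 2 lower in remission, 5 lower in the chronic phase and 0 lower in chronic against remission. Fitting only the groups compared gave 11 higher and 2 lower in remission and 0 lower in chronic against remission, and the title number as a covariate also gave 0 lower there. The cause of these other moves was not tested, and shares of all genes called under these settings are not given here. Leaving out single libraries gave 4 to 13 higher and 1 to 2 lower in remission, 9 to 17 higher and 1 to 4 lower in the chronic phase, 14 to 23 lower in remission against acute, and 0 to 3 higher and 0 to 5 lower in chronic against remission. The acute counts ranged only from 27 to 34 higher and from 20 to 25 lower. No paired analysis was possible because the labels give no number that ties a mouse of one group to a mouse of another. Calls near the threshold rest on few counts: the 112 genes held 11959 to 21083 counts per library.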
